A study of Rattus norvegicus with 14 samples.

Results

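The Dlg and Dlgap genes encode scaffold proteins of the postsynaptic density, the protein layer under the membrane of excitatory synapses. They were taken as every probe set of the array whose single gene symbol in the platform annotation is Dlg1, Dlg2, Dlg3, Dlg4, Dlgap1, Dlgap2, Dlgap3 or Dlgap4. This gave 16 probe sets of 8 genes, out of 15866 probe sets on the array and 10411 genes with a probe set of their own, and 14 of the 16 had a mean of at least 4 on the log2 scale and were tested. RNA came from microdissected dentate gyrus, a subfield of the hippocampus, of 14 male Long-Evans rats aged 3 to 4 months. All had been trained in a standard water maze 2 to 3 weeks before a session of 8 trials in a new pool. The 7 learning rats swam to a visible platform that stayed in place among orienting cues. For the 7 control rats the visible platform moved from trial to trial and the surroundings held no informative cues. A swim of 90 s without the platform came 1 h later, and tissue was taken directly afterwards, so both groups had swum. Each rat has 1 array, and the sample titles call the arrays biological replicates.

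The 4 Dlg proteins are membrane-associated guanylate kinases. They carry PDZ domains, which hold glutamate receptors, potassium channels and adhesion proteins by their C-terminal tails, and a guanylate kinase-like domain at the other end. The Dlgap proteins, also called GKAP or SAPAP, bind that guanylate kinase-like domain and link it to Shank, and through Shank to Homer and the actin cytoskeleton. In hippocampal neurons this chain helps to hold receptors at the synapse.

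The Dlgap4 probe set averaged 8.15 ± 0.10 on learning arrays and 8.52 ± 0.20 on control arrays (log2 scale, SD, n = 7 each), and it was the 1 of the 14 whose groups did not overlap (background 0.405% of all tested probe sets). Dlgap1 had one probe set with a higher mean in learning rats and another with a lower mean. Dlg1, Dlg2 and Dlg3 differed by at most 0.18 log2 units in this fit without covariates. Dlg4 averaged lower in learning rats on 2 probe sets, by -0.22 and -0.24. With each array left out in turn, these differences ran from -0.28 to -0.06 and from -0.31 to -0.08. None of the 14 differences passed limma's test at an adjusted p of 0.05, with a lowest adjusted p of 0.153 (Dlgap4). Here limma is a moderated linear model fitted over all 9387 probe sets of sufficient level, and the adjustment is Benjamini-Hochberg over all of them; it called 0% of them. At an unadjusted p below 0.05 there were 3 of the 14 member probe sets, or 21.4%, against a background of 13.1% of all tested probe sets. Of these, 1 was higher in learning rats (background 6.43%) and 2 were lower (background 6.67%). By sign alone, 8 of the 14 were higher and 6 lower, with a median difference of 0.02 log2 units, beside 51.7% higher and a median of 0.0050 over all tested probe sets. The values come from bulk tissue, in which fewer cells of a type and less RNA per cell cannot be told apart.

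**Figure D1:**
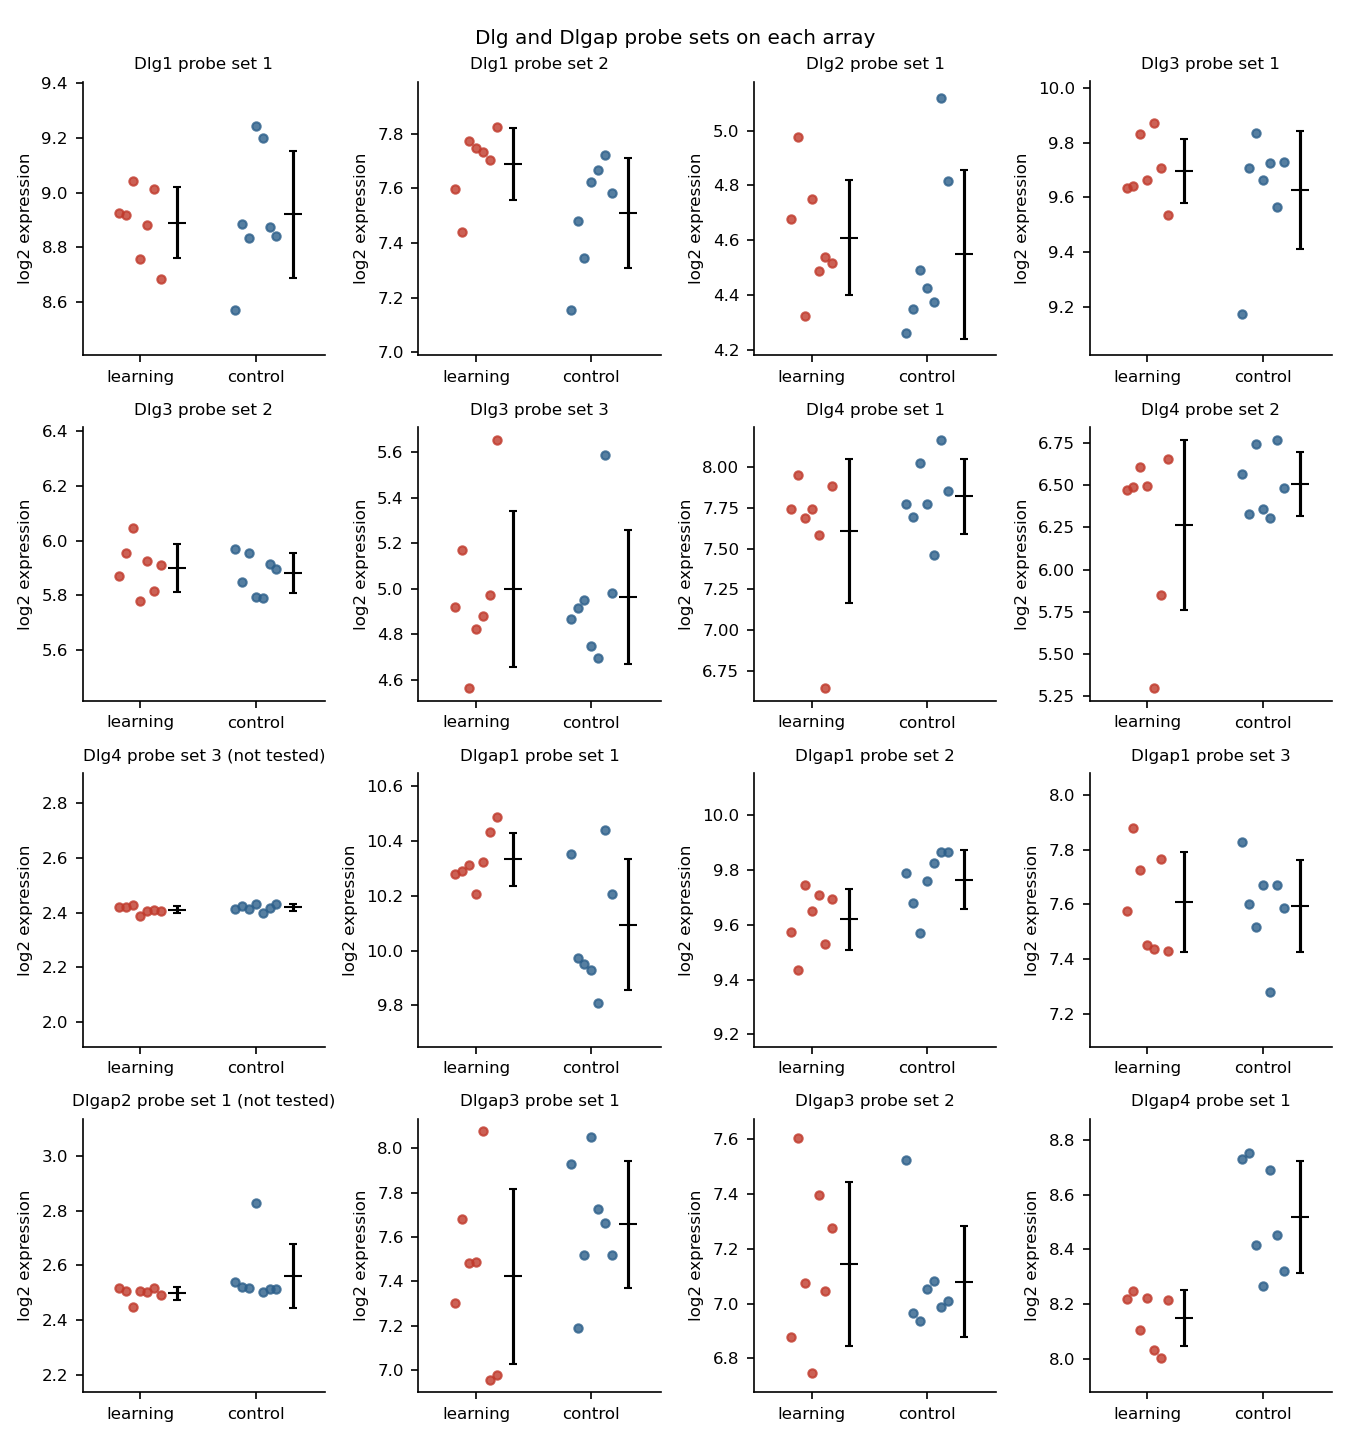
Log2 expression of the 16 Dlg and Dlgap probe sets on each array, learning left of control; points are arrays, and the dash and bar beside them are the mean and SD of 7 arrays. Dlgap4 is the panel in which no learning array reaches a control array, and the 2 untested probe sets lie flat near 2.5 apart from 1 control array of Dlgap2.

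The start regions of Dlgap4 and Dlgap1 are shown because they include the highest and the lowest content of G and C among the promoters found. The RefSeq table (build GRCr8) held promoters, 250 bases before to 50 bases after a start, for 6 of the 8 genes; Dlg3 and Dlgap2 were the others. Dlgap4 lies on the plus strand with its window at chr3:165584110-165584409, and Dlgap1 has 2 starts on the plus strand, with windows at chr9:117613834-117614133 and chr9:117864208-117864507. Capitals mark matches to the GC box, GGGCGG on either strand.
Dlgap4: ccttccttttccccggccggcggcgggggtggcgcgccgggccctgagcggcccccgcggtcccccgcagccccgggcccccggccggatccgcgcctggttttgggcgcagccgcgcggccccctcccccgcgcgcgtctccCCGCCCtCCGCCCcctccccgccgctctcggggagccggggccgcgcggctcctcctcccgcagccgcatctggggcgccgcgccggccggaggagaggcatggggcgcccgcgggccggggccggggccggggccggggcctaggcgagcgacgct
Dlgap1, upstream start: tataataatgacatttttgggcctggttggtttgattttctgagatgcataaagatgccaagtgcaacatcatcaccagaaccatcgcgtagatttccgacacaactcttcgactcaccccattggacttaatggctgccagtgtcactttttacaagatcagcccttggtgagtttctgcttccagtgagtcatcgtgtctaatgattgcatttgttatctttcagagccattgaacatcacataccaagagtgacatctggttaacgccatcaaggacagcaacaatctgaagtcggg
Dlgap1, downstream start: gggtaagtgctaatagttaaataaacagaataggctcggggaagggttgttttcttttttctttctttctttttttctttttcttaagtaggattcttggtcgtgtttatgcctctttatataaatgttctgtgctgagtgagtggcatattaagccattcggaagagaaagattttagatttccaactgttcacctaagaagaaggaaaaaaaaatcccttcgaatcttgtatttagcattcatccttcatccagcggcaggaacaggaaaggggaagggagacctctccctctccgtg
The Dlgap4 window was 85.3% G or C, above 99.9% of the 33469 promoters in the table, and held 50 CpG dinucleotides against a median of 7. It held 2 GC boxes, a motif found in 33.1% of all promoters in the table. Both Dlgap1 windows held none, and were 43.3% and 39.0% G or C, beside a median of 51.7% over all promoters. The Dlg2 window, at 42.3%, lay between them, so only the downstream Dlgap1 window was the lowest. The cyclic AMP response element TGACGTCA (1.83% of all promoters) and its shorter core TGACG (21.2%), which lies within it, were searched on both strands and matched no window of a member. The E-box CACGTG (6.42% of all promoters) matched 1 window, that of Dlg1. These matches describe the letters of the windows only.

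Dlgap4 (SAPAP4), a binding partner of the Dlg guanylate kinase-like domain, was read by 1 probe set, 1370507_at. Its log2 values ran from 8.00 to 8.25 on learning arrays, with a median of 8.22, and from 8.27 to 8.75 on control arrays, with a median of 8.45. All 7 learning arrays lay below all 7 control arrays, with a gap of 0.02 between the nearest pair, learning replicate 2 and control replicate 4. Only 0.234% of all tested probe sets had groups apart in this direction, 22 of 9387. Control replicates 1, 2 and 5 were the highest, at 8.73, 8.75 and 8.69, and the other 4 control arrays lay at 8.45 or below. The difference, learning minus control, was -0.37 ± 0.08 log2 units (SE), with a 95% confidence interval of -0.55 to -0.19, or 1.29-fold lower in learning rats. In limma its unadjusted p was 0.000484, while the adjusted p was 0.153. With each array left out in turn the difference stayed between -0.41 and -0.33.

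Dlgap1 (GKAP), the founding member of the Dlgap family, was read by 3 probe sets that differed in sign. The first, 1370053_at, ranged from 10.2 to 10.5 on learning arrays, with a median of 10.3, and from 9.81 to 10.4 on control arrays, with a median of 9.97. Control replicates 1 and 6, at 10.35 and 10.44, lay within the learning range, and the other 5 control arrays lay below every learning array, replicate 7 by less than 0.01. The difference was 0.24 ± 0.09 log2 units (SE; unadjusted p = 0.0210, adjusted p = 0.306 in limma). The second probe set, 1387802_at, ranged from 9.44 to 9.75 on learning arrays and from 9.57 to 9.87 on control arrays, with medians of 9.65 and 9.79. Here 5 control arrays lay above every learning array, so the groups leaned the opposite way. This difference was -0.14 ± 0.06 log2 units (SE; unadjusted p = 0.0345, adjusted p = 0.349 in limma). Probe set 1388057_a_at, the dimmest of the 3, averaged 7.61 ± 0.18 on learning arrays and 7.59 ± 0.17 on control arrays (SD, n = 7 each), a difference of 0.02. The first 2 probe sets carry the same RefSeq transcript in the annotation, and which part of the transcript each reads was not tested.

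Whether probe sets of a gene disagree was tested directly, on the difference between 2 probe sets of a gene on each array; the size of that gap depends on the probes, and only its change between groups was tested. All 1338 such pairs in the table, of 922 genes, were fitted together with limma, and 7 of them (0.523%) passed an adjusted p of 0.05. Of the 9 pairs among the members 0 passed, and 2 had an unadjusted p below 0.05, against 15.8% of all pairs. For Dlgap1 the first probe set exceeded the second by 0.56 to 0.90 log2 units on learning arrays, with a median of 0.71, and by -0.01 to 0.57 on control arrays, with a median of 0.34. Among the 7 learning arrays 5 lay above every control array. The gap was larger in learning rats by 0.38 ± 0.10 log2 units (SE), with a 95% confidence interval of 0.17 to 0.60, and ranked 25 among all pairs by p (unadjusted p = 0.0015, adjusted p = 0.0792 in limma). It stayed between 0.33 and 0.43 with each array left out in turn, while the adjusted p over all its alternatives ran from 0.0528 to 0.183. Between the first probe set and the dimmest, the gap differed by 0.22 ± 0.11 log2 units (SE; unadjusted p = 0.0491, adjusted p = 0.313 in limma).

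**Figure D2:**
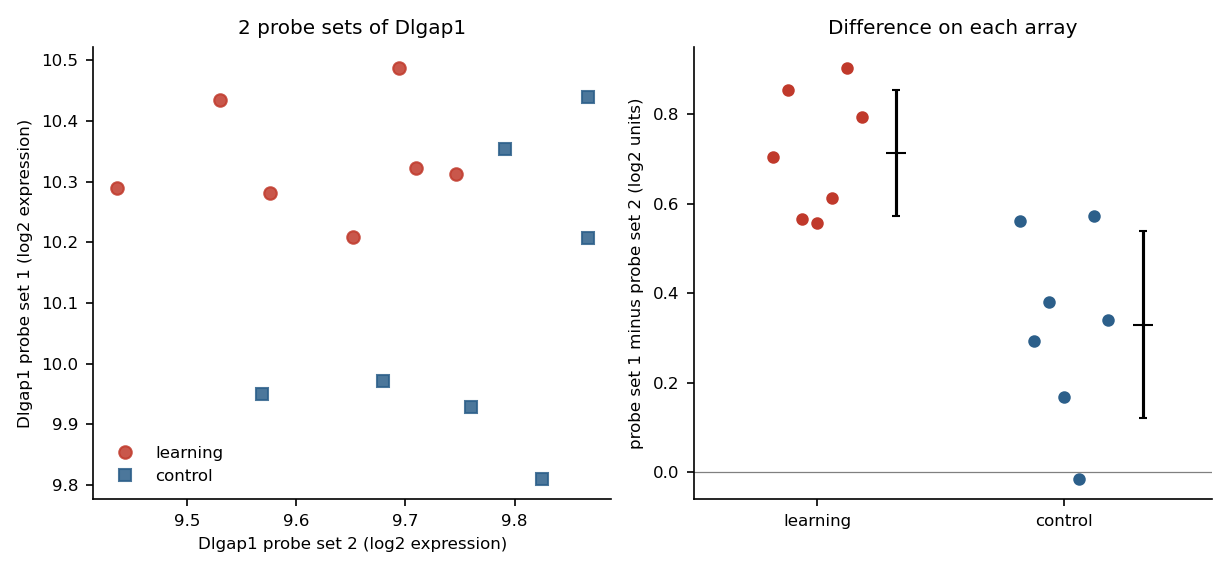
Left, log2 expression of Dlgap1 probe set 1 against probe set 2 on the 14 arrays; right, their difference on each array, learning left of control, with mean and SD of 7 arrays. Learning arrays lie above or to the left of most control arrays, and their differences start at 0.56 where the control arrays end at 0.57.

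Levels of other cell types' markers were set beside these values. The marker lists were chosen with earlier results of these data known, so their permutation p values are given as descriptions. The 3 tested choroid plexus markers, led by Enpp2 and Ttr (transthyretin), had a mean of 5.82 ± 0.10 on learning arrays and 6.37 ± 0.35 on control arrays (SD, n = 7 each; two-sided exact permutation p = 0.0012, unadjusted over 9 lists). Their summed log2 level ran from 17.0 to 17.9 on learning arrays and from 17.7 to 20.4 on control arrays, 1 of the 3 was higher and 2 lower in learning rats, and Folr1 and Kl were under the filter. The mean of the 3 per array ran from 5.68 to 5.98 on learning arrays and from 5.91 to 6.79 on control arrays. It thus nearly divided the groups, and a fit that holds both cannot tell them apart well. With that mean as a covariate, chosen after the data were seen, the first Dlgap1 probe set differed by -0.01 and Dlgap4 by -0.42 (adjusted p = 0.373 in limma). Ttr itself averaged 5.68 ± 0.14 on learning arrays and 7.47 ± 1.07 on control arrays (SD, n = 7 each), and Enpp2 averaged 7.26 and 7.30. The lower mean of the choroid plexus list thus rested mainly on Ttr. The choroid plexus covariate put the first Dlg3 probe set at 0.34, against 0.07 without it, and the 2 tested Dlg4 probe sets at -0.40 and -0.47, against -0.22 and -0.24 (adjusted p = 0.372, 0.686 and 0.639 in limma with the covariate). The 6 tested CA1 markers were higher in learning rats by 0.31 log2 units on average (exact permutation p = 0.0495), with 5 higher and 1 lower and summed levels of 43.7 to 46.5 on learning arrays and 40.7 to 47.3 on control arrays. Pou3f1 and Man1a1 were below the filter, and Itpka and Lmo3, the brightest, differed by -0.05 and 0.0025. With the CA1 mean as a covariate Dlgap4 differed by -0.47 and the first Dlgap1 probe set by 0.34. Microglial markers (5 tested, 1 higher and 4 lower, Cx3cr1 under the filter), led by Csf1r and C1qa, differed by -0.19 on average (exact permutation p = 0.0431), with summed levels of 35.4 to 36.6 on learning arrays and 35.3 to 38.1 on control arrays. Their mean as a covariate left Dlgap4 at -0.38 (adjusted p = 0.938 in limma) and the first Dlgap1 probe set at 0.14. Dlgap4 kept its sign with each of these 3 covariates, and its adjusted p in limma ran from 0.110 to 0.938 over all 27 alternatives. What part the marker levels have in the Dlgap1 value was not tested further.

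Granule cell markers were detected, although no other hippocampal subfield was on the arrays to compare them with. Prox1 and Calb1, which mark granule cells, averaged 10.3 and 10.8 on learning arrays and 10.3 and 10.8 on control arrays. Means of the 4 tested granule cell markers ran from 8.56 to 8.84 on learning arrays and from 8.46 to 8.74 on control arrays (exact permutation p = 0.132), with C1ql3 and Tdo2 under the filter. The 8 neuronal markers, with Snap25 and Map2 the brightest, differed by -0.03 (exact permutation p = 0.136). Exact permutation tests gave p = 0.887 for the 5 CA3 markers, led by Chgb and Cadm1, 0.347 for 7 astrocyte markers, led by S100b and Gja1, and 0.875 for 5 oligodendrocyte markers, led by Mbp and Mobp. The 6 meningeal markers, led by Ptgds and Igf2, were all lower in learning rats (exact permutation p of their mean 0.524), and their means ran from 4.83 to 8.18 on learning arrays and from 5.06 to 8.21 on control arrays. Array medians lay between 5.09 and 5.12.

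Dlgap3 (SAPAP3), a Dlgap member best known from striatal synapses in mice, was read by 2 probe sets with wide spread. The first, 1376233_at, ran from 6.95 to 8.08 on learning arrays, with a median of 7.48, and from 7.19 to 8.05 on control arrays, with a median of 7.66. Its difference was -0.23 ± 0.17 log2 units (SE; adjusted p = 0.560 in limma). The second, 1370533_at, ran from 6.75 to 7.61 on learning arrays, with a median of 7.08, and from 6.94 to 7.52 on control arrays, with a median of 7.01, a difference of 0.07 ± 0.13 (SE). Learning arrays covered or passed the whole control range on both. Dlgap2 (SAPAP2) was not tested: its only probe set averaged 2.50 ± 0.02 on learning arrays and 2.56 ± 0.12 on control arrays (SD, n = 7 each), under the filter of 4. Control replicate 4 stood at 2.83 and the other 13 arrays at 2.54 or lower.

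Dlg4 (PSD-95), the main scaffold of mature excitatory synapses, had 2 tested probe sets. The first, 1387210_at, ran from 6.64 to 7.95 on learning arrays, with a median of 7.74, and from 7.46 to 8.17 on control arrays, with a median of 7.78. The second, 1371183_a_at, ran from 5.30 to 6.65 on learning arrays, with a median of 6.49, and from 6.30 to 6.76 on control arrays, with a median of 6.48. The group medians were thus nearly level on both, and single learning arrays lay far below the rest. The differences were -0.22 ± 0.17 and -0.24 ± 0.18 log2 units (SE; adjusted p = 0.592 and 0.578 in limma). Without learning replicate 6 the first was -0.06, and without learning replicate 5 the second was -0.08. At the other end, the first was -0.28 without control replicate 5, and the second -0.31 without learning replicate 7. Learning replicate 6 was low on both probe sets (6.64 and 5.85), whereas learning replicate 5 was low on the second and at 7.58 on the first. The last Dlg4 probe set, 1389901_at, averaged 2.41 ± 0.01 on learning arrays and 2.42 ± 0.01 on control arrays (SD, n = 7 each) and was not tested.

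**Figure D3:**
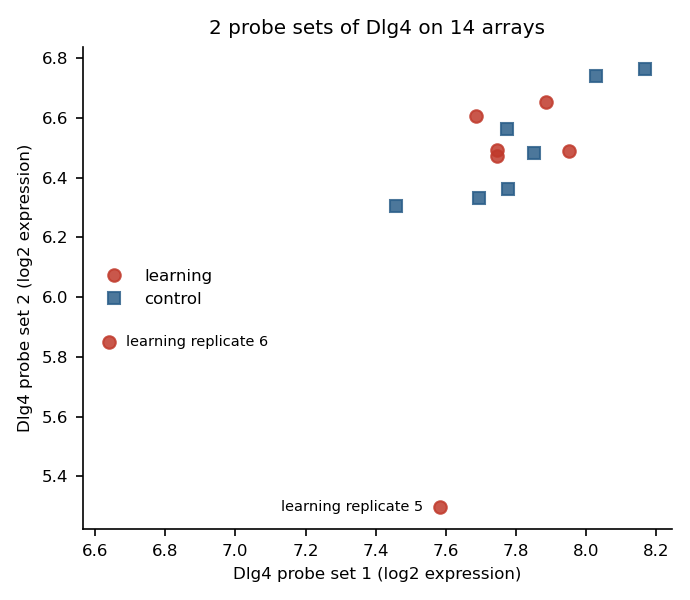
Log2 expression of Dlg4 probe set 2 against probe set 1, 1 point per array, learning as circles and control as squares. Learning replicates 5 and 6 lie apart, at 5.30 and 5.85 on probe set 2, and the other 12 arrays lie at 6.30 or above.

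The other 3 Dlg genes showed small differences. Dlg1 (SAP97), which binds the tail of the AMPA receptor subunit GluA1, differed by -0.03 ± 0.10 log2 units (SE) on probe set 1388816_at. On 1368944_at it ran from 7.44 to 7.82 on learning arrays, with a median of 7.73, and from 7.16 to 7.72 on control arrays, with a median of 7.58. That is a difference of 0.18 ± 0.09 (SE; unadjusted p = 0.0592, adjusted p = 0.400 in limma), with 4 learning arrays above every control array. Leaving out single arrays moved it between 0.12, without control replicate 1, and 0.22. Dlg2 (PSD-93), a close relative of Dlg4, was read by 1 probe set near the filter, at 4.61 ± 0.21 on learning arrays and 4.55 ± 0.31 on control arrays (SD, n = 7 each), a difference of 0.06 with an interval of -0.22 to 0.34. Leaving out learning replicate 2 gave 0.000325, and leaving out control replicate 6 gave 0.16. Dlg3 (SAP102), the Dlg protein prominent at young synapses and a binding partner of NMDA receptors, differed by 0.07, 0.02 and 0.03 on its 3 probe sets. Its intervals were -0.12 to 0.26 on 1372041_at, -0.09 to 0.13 on 1387393_at and -0.30 to 0.36 on 1388280_a_at. The groups overlapped on all 3.

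**Figure D4:**
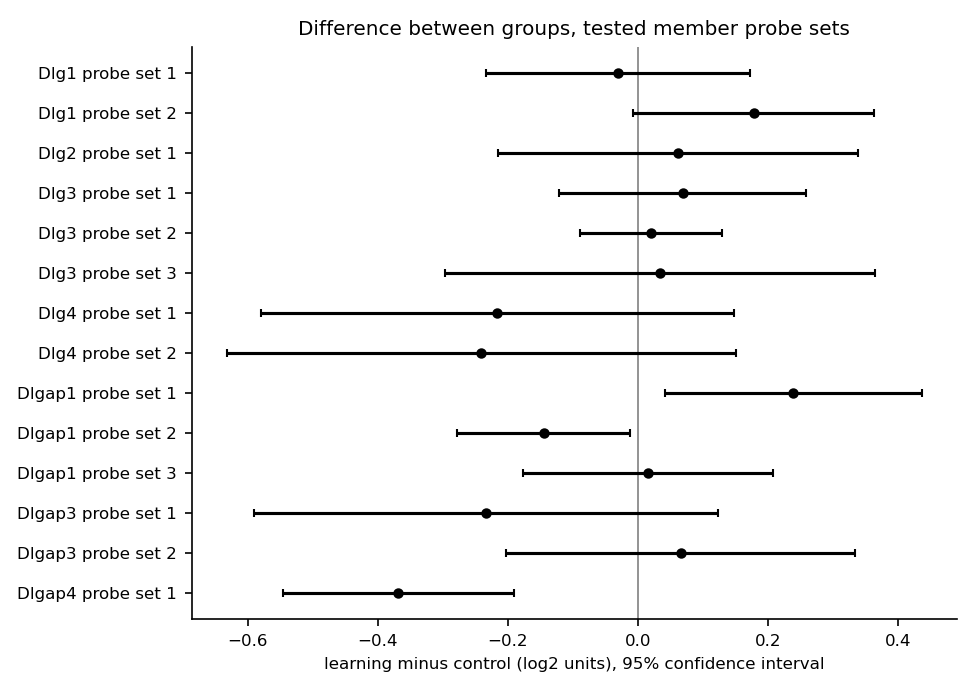
Learning minus control in log2 units for the 14 tested member probe sets, with 95% confidence intervals from limma. The intervals of Dlgap4 (-0.55 to -0.19) and of the first and second Dlgap1 probe sets lie to one side of 0, and those of the other 11 include it.

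Agreement of probe sets was described by how their deviations from the group means went together over 14 arrays. The permutation p values are part of this description, because they treat the deviations of all 14 arrays as exchangeable. Spreads could differ by group, as on the second Dlg4 probe set (SD 0.50 on learning and 0.19 on control arrays). Across all 1338 pairs in the table the median Pearson r was 0.16, with quartiles of -0.07 and 0.41. The 2 Dlg4 probe sets had r = 0.58 and rho = 0.80 (permutation p = 0.0486 and 0.00079, adjusted over all pairs 0.313 and 0.0320). Without the 2 arrays farthest from the median on the first probe set, r was 0.60. Learning replicate 5, low on the second Dlg4 probe set at 5.30, was still among the arrays kept. In every pair the 2 arrays left out were chosen on the first probe set only. For the 2 Dlgap3 probe sets r was 0.44 and rho 0.56 (permutation p = 0.111 and 0.0399, adjusted 0.440 and 0.306), and r was 0.34 without 2 arrays. The 2 Dlg1 probe sets gave r = 0.46 and rho = 0.27 (permutation p = 0.102 and 0.358, adjusted 0.426 and 0.717), and r was 0.06 without 2 arrays. The first 2 Dlgap1 probe sets gave r = 0.34 and rho = 0.43 (permutation p = 0.238 and 0.123, adjusted 0.608 and 0.476), and r = 0.21 without 2 arrays. The 3 Dlg3 pairs had r values of -0.10, -0.33 and 0.09, and the dimmest Dlgap1 probe set had r = 0.44 with the first and -0.31 with the second. The lowest permutation p among these 5 values of r was 0.112 (adjusted 0.440). The value of -0.33, between its first and last probe sets, became -0.72 without 2 arrays.

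The genes whose deviations followed a member's brightest probe set most closely were found among 7796 single-gene probe sets; r is over 14 arrays after removal of group means, and is a description because the highest values were chosen. Poglut1, a protein O-glucosyltransferase, and Man2a2, a Golgi mannosidase, followed Dlgap4 with r = 0.81 and 0.80. Grm7, a presynaptic metabotropic glutamate receptor, and the autophagy gene Atg12 followed Dlgap1 with r = 0.88 and 0.87. Dlg2 went with Stxbp5, which encodes tomosyn, at 0.89 and with a Camk2a probe set at 0.85, and Dlg4 with Fam171a1 at 0.84 and the phosphatase gene Ppm1l at 0.83. For Dlg1 the closest were Gskip (0.91) and Dlc1 (0.87), for Dlg3 Crebbp (0.91) and Wwc3 (0.88), and for Dlgap3 Mtss1 (0.80) and Ptpn3 (0.78). Over these 14 relations rho ran from 0.61 to 0.90, and r without the 2 farthest arrays ran from 0.60 to 0.92. No member was among the 2 closest genes of another.

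Genes whose proteins bind or regulate these scaffolds were taken from a list of 65, of which 58 had a probe set and 42 were tested, each by its brightest probe set. In limma 0 passed an adjusted p of 0.05 (background 0%), and 9 had an unadjusted p below 0.05 (background 12.6% of 6697 genes). Those 9 were 5 higher (background 5.99%) and 4 lower (background 6.66%) genes. By sign, 27 of the 42 were higher and 15 lower, with a median difference of 0.03 beside 0.0018 over all genes. Without the filter the median over 58 genes was 0.0085. Of 14 other scaffold and motor genes, 13 were higher, against 50.6% of all genes, by a median of 0.06 log2 units. In limma 2 of these 14 (14.3%) had an unadjusted p below 0.05, against 12.6% of all genes. A per-gene mean over its probe sets left 12 of the 14 higher, and the count of signs was not tested. The scaffold and motor genes were led by Homer1, which links Shank to metabotropic receptors, at 0.25 ± 0.08 (SE). Next were Shank2, a direct partner of Dlgap proteins, at 0.16 ± 0.09, and Baiap2, an actin regulator, at 0.13 ± 0.05. The other 2 Baiap2 probe sets, however, differed by -0.09 and -0.06. Of 4 other Homer1 probe sets the lowest differed by -0.05 and the highest by 0.30. The 1 lower member, Cnksr2, differed by -0.0011, and is named after its value was seen. Its other probe set differed by 0.135, and the other probe sets of Dynll2 and Epb41l1 by -0.128 and 0.052. On their brightest probe sets Dynll2 and Epb41l1 differed by 0.091 and 0.073.

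Among 11 receptor and channel genes 5 were higher and 6 lower, with a median of -0.03. Gria1, the AMPA receptor subunit that binds Dlg1, averaged 9.89 ± 0.39 on learning arrays and 10.3 ± 0.27 on control arrays (SD, n = 7 each), a difference of -0.45 ± 0.16 (SE; adjusted p = 0.280 in limma). Kcnj4, an inward rectifier held by Dlg4, differed by -0.24 ± 0.08 (SE) and by -0.40 on its other probe set, while Kcna1, a shaker-type potassium channel clustered by Dlg proteins, differed by 0.26 ± 0.09 (SE). The 3 adhesion genes were Nlgn1 at 0.01, Nlgn3 at -0.13 and Adam22 at -0.14. With learning replicate 1 left out Nlgn3 was at -0.26, and with control replicate 5 left out at -0.04, while Adam22 was -0.21 without learning replicate 3 and -0.09 without learning replicate 4. Of 14 enzymes and regulators 8 were higher and 6 lower, with a median of 0.02. Camk2a, the kinase most abundant in the postsynaptic density, differed by 0.59 ± 0.21 (SE), with other probe sets at -0.14 and 0.23. Cit, which encodes citron kinase, differed by -0.26 ± 0.09 (SE), and Fyn, a kinase that phosphorylates NMDA receptors, by -0.21 ± 0.07 (SE). Adjusted p values of all these genes in limma were 0.242 or higher.

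**Figure D5:**
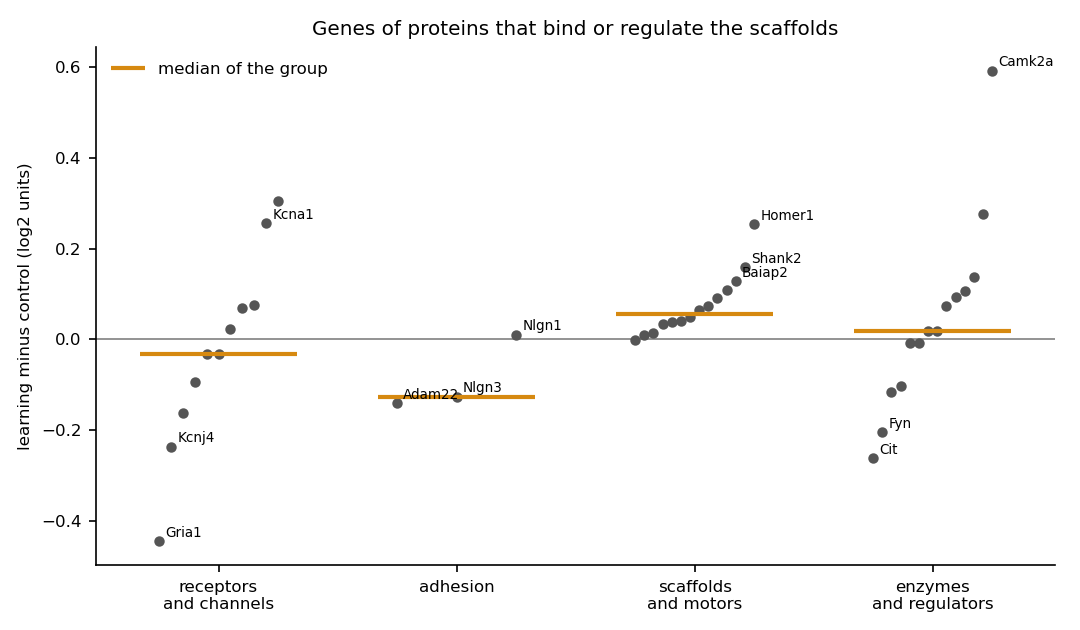
Learning minus control in log2 units for 42 tested genes of scaffold partners in 4 groups, 1 point per gene, with the median of each group as a bar; named genes are the 3 of smallest p in each group. Points of the scaffold and motor group lie between -0.0011 and 0.25, and those of the receptor and enzyme groups spread to both sides of 0.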

How the data were processed

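Total RNA of dentate gyrus was hybridised to Affymetrix RAE230A arrays, 1 per rat, per the labels' protocols. The deposited values are log2 expression per probe set, and the submitters' processing notes name GCRMA, with no version. GCRMA models background from probe sequence and compresses differences of dim probe sets. Probe intensities were not used here. Genes came from the platform annotation.

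After removal of control probe sets, 9387 whose mean reached 4 were fitted, learning minus control, with limma 3.58.1 in R 4.3.3 without covariates. A gene stood for its brightest probe set. Pairs of probe sets of a gene were fitted the same way on their differences. Correlations had 100000 permutations. Marker means were compared over all 3432 assignments of arrays, whose smallest p is 0.000583. The fits were run on simulated data with independent noise for each probe set. That check covers the code only, since it lacks variation shared between probe sets. Levels of different probe sets are not comparable, so no Dlg or Dlgap gene is ranked against another by level. Brightness served only to choose probe sets and the marker genes to name. The number of arrays limits precision.

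The members, the partner and marker lists and the naming rule were chosen with earlier results of these data known. The rule names all member probe sets, 3 genes of smallest p per partner group, 2 genes of closest deviations per member, and the 2 brightest genes per marker list. Alternatives were other filters, normalizations, priors, array weights, marker covariates, a replicate block and leaving out each array.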

Additional observations from a re-analysis of the deposited data

Results flagged for a closer look

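Of the 32 groups of 7 arrays examined (16 probe sets in learning and in control rats), 6 held an array set apart from the rest of its group, where the gap to the nearest array was a large part of the group's range. Chance alone gives such an array in about 1 of 20 groups if the values are independent and normally distributed, which was not tested. The 32 groups share the same 14 arrays, so the 6 are not independent of each other. For Dlg4 probe set 1, learning replicate 6 stood at 6.64 and the next learning array at 7.58. For Dlg3, control replicate 1 was the lowest control array of probe set 1 at 9.18 (next 9.56), and control replicate 6 the highest of probe set 3 at 5.59 (next 4.98). For Dlgap3 probe set 2, control replicate 1 was the highest control array at 7.52 (next 7.08). For Dlgap2, which was under the filter, learning replicate 3 was the lowest learning array at 2.45 (next 2.49) and control replicate 4 the highest control array at 2.83 (next 2.54).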

How the results depend on the processing

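Over 27 alternatives the count of member probe sets past the adjusted threshold stayed at 0, and the count at an unadjusted p below 0.05 lay between 2 and 4. Dlgap4, Dlgap1 probe set 2, Dlg1 probe set 2, Dlgap3 probe set 1 and the 2 tested Dlg4 probe sets kept their sign in every alternative. Of the pairs between probe sets, 0 passed in any of 18 alternatives. Sign changes were found for small differences and, with the choroid plexus covariate, for Dlgap1 probe set 1 (-0.0131); the cause was not tested. With the neuron marker mean as covariate, Dlg1 probe set 1 was at 0.0501, Dlg2 at -0.0583, Dlg3 probe set 3 at -0.0575 and Dlgap1 probe set 3 at -0.0296. With the meningeal mean, Dlg3 probe set 3 was at -0.0284 and Dlgap1 probe set 3 at -0.0130, and with the CA1 mean Dlgap3 probe set 2 was at -0.0627. The choroid plexus and microglial covariates were added after the data were seen, and the choroid plexus mean nearly divided the groups. The choroid plexus mean put Dlg1 probe set 1 at 0.0672, Dlg2 at -0.0663, Dlg3 probe sets 2 and 3 at -0.000928 and -0.218, Dlgap1 probe set 3 at -0.185 and Dlgap3 probe set 2 at -0.0425. The microglial mean put Dlg2 at -0.0885, Dlg3 probe set 3 at -0.176 and Dlgap3 probe set 2 at -0.0194. Averaging the 3 Baiap2 probe sets gave -0.0076.

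Leaving out 1 array at a time gave -0.0898 to 0.0225 for Dlg1 probe set 1, -0.0065 to 0.103, -0.0048 to 0.0397 and -0.0760 to 0.137 for the 3 Dlg3 probe sets, -0.0371 to 0.0545 for Dlgap1 probe set 3, -0.0107 to 0.140 for Dlgap3 probe set 2 and -0.0907 to 0.0710 for Nlgn1. For pairs of probe sets it gave -0.0412 to 0.0805, -0.0789 to 0.172 and -0.112 to 0.0942 in Dlg3 and -0.133 to 0.117 in Dlg4. The count of scaffold partners higher in learning rats ran from 11 to 14, and the partner list median from 0.02 to 0.05, against 0.0085 without the filter.

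The labels do not say that a number is shared by 2 rats, and the data did not show pairing for every number: correlations of the deviations of same-numbered arrays ran from -0.28 to 0.26 and 4 of 7 exceeded 0.1. With the replicate block Dlgap4 had an adjusted p of 0.142 in limma, the Dlgap1 gap between probe sets 0.0786, and 3 member probe sets an unadjusted p below 0.05. Of 7 learning arrays, 2 correlated best with the control array of the same number, and of 7 control arrays, 4 correlated best with the learning array of theirs. Probe sets near 2.5 lie at the low end of the scale, where GCRMA values carry little information.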
